A study of Bos taurus with 7 samples.

Results

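The genes described here are those with RNA in primary follicles and next to none in secondary follicles of the cow. A gene was taken when it had a symbol not starting with LOC, stood at 0.5 TPM or more in each of primary replicates 1 to 3, and stood below 0.1 TPM in each of the 3 secondary libraries. TPM is an RNA level corrected for transcript length and library depth. The members were thus chosen by their measured TPM in these 6 libraries. Of 17974 genes with such a symbol, 10991 met the primary condition and 17 of these also met the secondary condition, which is 0.155%. *XIAP* and *CTCFL* were set aside by the rule, leaving 15 genes, of which 12 code for proteins and 3 for miRNA precursors. The opposite pattern, 0.5 TPM or more in every secondary library and below 0.1 TPM in primary replicates 1 to 3, was met by 50 of 11199 genes, or 0.446%.

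The study followed early growth of bovine ovarian follicles by RNA-seq. Secondary follicles (SF, 3 libraries) were early ones, with a few granulosa layers around the oocyte, and primary follicles (PF, 4 libraries) had a single complete layer of cuboidal granulosa cells. Both kinds were whole follicles, oocyte included, taken mechanically from the ovarian cortex of young Holstein Friesian dairy cows from an abattoir, sorted by sieve and by eye, rested briefly in medium holding insulin, transferrin, selenium and recombinant FSH, and lysed in pools, with no treatment that set the groups apart. The study left PF replicate 4 out as an outlier, and the rule did not use it, so its values are given separately; primordial follicles are not analysed here.

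A primary follicle holds an oocyte that has started to grow inside its first layer of cuboidal granulosa cells, and the secondary stage is reached as those cells divide into further layers. The oocyte is arrested in the first meiotic prophase throughout, long after its chromosomes paired. Since a pool of whole follicles was sequenced, fewer cells of a type and less RNA per cell cannot be told apart.

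The 7 libraries held between 18788105 and 23764615 estimated counts. Summed oocyte markers stood at 1723, 1332 and 236 TPM in SF and at 5034, 4535 and 2458 TPM in PF replicates 1 to 3, a mean 3.65-fold higher in PF, with 475 TPM in PF replicate 4. Summed granulosa markers stood at 7595, 7355 and 7051 TPM in SF and at 3259, 2131 and 2379 TPM in PF replicates 1 to 3, with 2478 TPM in PF replicate 4. The labelled content, oocyte and granulosa cells, was thus present in every library, with oocyte markers lowest in SF replicate 3. PF replicate 4 stood apart: its stromal fibroblast markers summed to 6201 TPM, against 221 to 528 TPM in SF and 424 to 620 TPM in the other PF libraries. Their part in the values below was not tested.

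**Figure D1:**
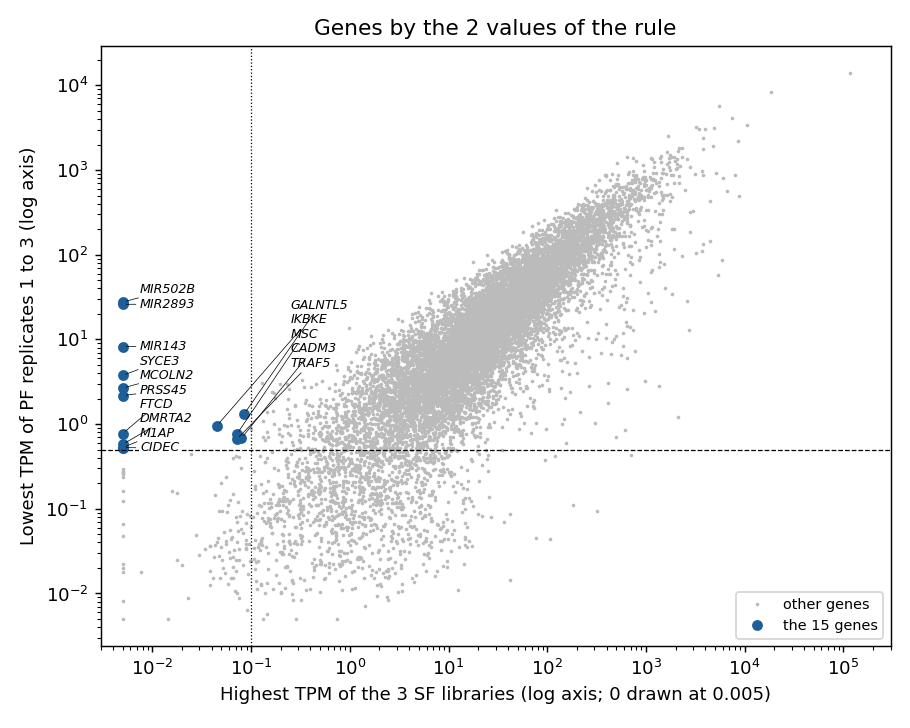
Each point is 1 gene, placed by its highest TPM among the 3 SF libraries (x, log axis) and its lowest TPM among PF replicates 1 to 3 (y, log axis), with lines at the limits of 0.1 and 0.5 TPM. The 15 genes fill the upper left corner because the rule puts them there, and 10 of them lie at 0 on the SF axis.

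The values that chose the genes are a description and were not tested. On the transcripts matched to each gene, no count was found in any SF library for 10 of the 15, and 5 had between 1 and 10 counts over the 3 SF libraries. Reads on transcripts matched to no gene are not part of these counts. The protein-coding members were low-level transcripts in PF too: their means over PF replicates 1 to 3 ran between 0.804 and 5.90 TPM, with a median of 2.03 TPM, against a median of 21.1 TPM over the 10991 genes that met the primary condition. Some 18.9% of those genes lay below 5.90 TPM. The members also had somewhat short transcripts, with a median longest transcript of 2171 bases for the coding members and 2727 bases over the 10991 genes.

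**Figure D2:**
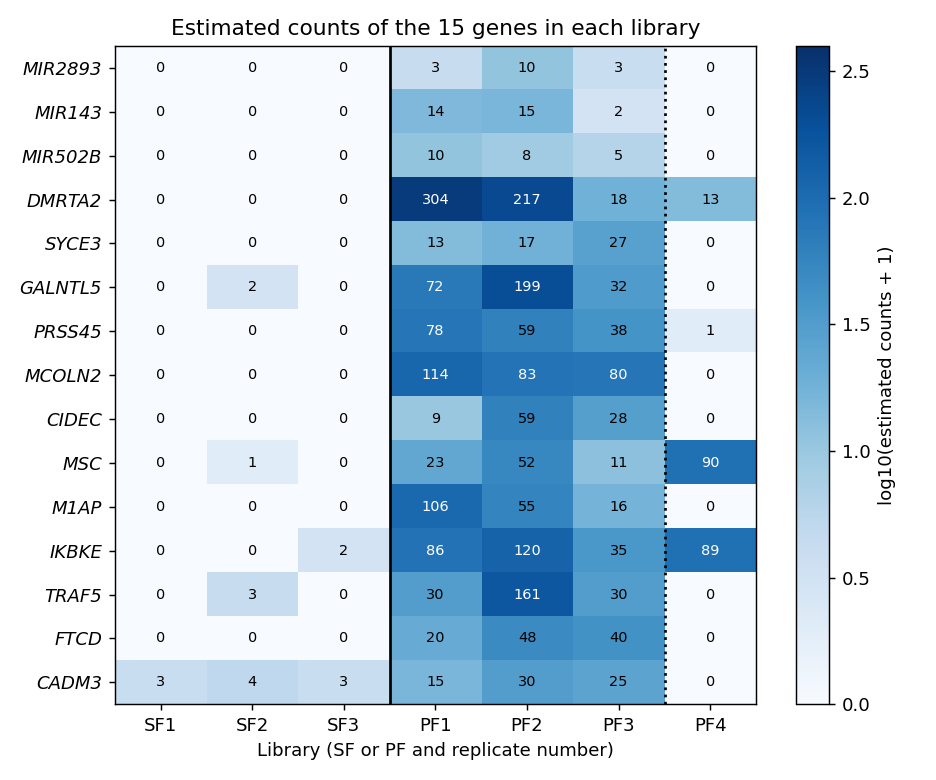
Estimated counts (number and shade, log10 of the count plus 1) of the 15 genes in rows, for SF replicates 1 to 3, PF replicates 1 to 3 and PF replicate 4 in columns. The SF columns hold 4 counts or fewer in any cell, and the PF replicate 4 column is at 0 for 11 genes.

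Genes of meiosis and of germ cells came to 3 of the 12 coding members. *SYCE3* encodes a part of the central element of the synaptonemal complex, the scaffold that holds paired chromosomes together. In mice it is needed for this scaffold to assemble. It was listed at 0 in SF replicates 1 to 3 and stood at 3.76, 5.09 and 7.54 TPM in PF replicates 1 to 3 (mean 5.46 ± 1.92, SD, n = 3), with 0 in PF replicate 4. These rested on 57 counts over PF replicates 1 to 3, so that, set against a floor of 3 counts over the SF libraries together, *SYCE3* was at least 21.3-fold lower in SF. This bound and those below take the summed PF counts as measured. They cover neither the counting error of PF nor the spread between its libraries. With *CADM3* it is one of the 2 members whose highest PF value was in replicate 3. Its transcripts are short, so a single count in SF is worth 0.245 to 0.293 TPM and the limit of 0.1 TPM amounts to no count at all.

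*M1AP*, meiosis 1 associated protein, is needed for sperm formation in mice. It was listed at 0 in all SF libraries and stood at 3.50, 1.81 and 0.528 TPM in PF replicates 1 to 3, from 177 counts, at least 66.1-fold lower in SF. PF replicate 3 was thus 6.64-fold below PF replicate 1, and PF replicate 4 was at 0. *GALNTL5* encodes a relative of the enzymes that attach N-acetylgalactosamine to proteins, lacks their activity and is known from mouse sperm. It stood at 0, 0.0854 and 0 TPM in SF and at 2.96, 8.16 and 1.32 TPM in PF replicates 1 to 3, with 0 in PF replicate 4. Its SF value rests on 2 counts in SF replicate 2, against 303 counts in PF, a ratio of SF over PF of 0.0059 (95% counting interval 0.000711 to 0.0215). The rule fixes that the groups do not overlap, and PF replicate 2 held 65.7% of the PF counts.

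Both transcription factors among the members varied widely within PF. *DMRTA2*, a DM domain factor that acts in neural progenitors of the mouse cortex, was listed at 0 in SF and stood at 10.02, 7.09 and 0.577 TPM in PF replicates 1 to 3, with 0.473 TPM in PF replicate 4. Its 539 counts over PF replicates 1 to 3 give the largest bound of the coding members, at least 201-fold lower in SF. Of these counts PF replicate 3 held 17.6. PF replicates 1 and 2 were high while replicates 3 and 4 lay close together near the limit, and the spread of 17.4-fold within replicates 1 to 3 was the widest of the 15. The 2 high libraries have library numbers 24 and 34, and PF replicates 3 and 4 have 46 and 47. Of the SF libraries, only replicate 1 (26) is numbered below 40. The part of library number in this split was not tested. *MSC*, musculin, is a basic helix-loop-helix repressor. It stood at 0, 0.0718 and 0 TPM in SF, from 1 count, and at 1.60, 3.65 and 0.761 TPM in PF replicates 1 to 3, a ratio of 0.0104 (0.00026 to 0.0595). PF replicate 4, at 6.93 TPM, was the highest of all 7 libraries for *MSC*, and that library also held the highest stromal marker sum; the part of those cells in it was not tested.

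Signalling and endolysosomal genes gave 3 members. *IKBKE* encodes a noncanonical I-kappa-B kinase that acts upstream of interferon regulatory factors. It stood at 0, 0 and 0.045 TPM in SF, from 2 counts, and at 1.87, 2.88 and 0.956 TPM in PF replicates 1 to 3, from 241 counts, a ratio of 0.00742 (0.000893 to 0.0271). PF replicate 4 held 2.18 TPM, within the range of the other PF libraries, which no other member showed. *TRAF5*, an adaptor of tumour necrosis factor receptors, stood at 0, 0.0717 and 0 TPM in SF and at 0.661, 3.54 and 0.662 TPM in PF replicates 1 to 3, with 0 in PF replicate 4. The ratio of its counts was 0.0122 (0.00249 to 0.0361), and PF replicate 2 alone held 73.0% of its 220 PF counts. *MCOLN2*, a cation channel of endosomes and lysosomes, was listed at 0 in SF and stood at 3.12, 2.76 and 2.66 TPM in PF replicates 1 to 3, at least 103-fold lower in SF, and at 0 in PF replicate 4. It was the steadiest member, with 1.17-fold between its highest and lowest PF value. The quantification placed all its counts of PF replicate 1 on a predicted transcript of 2574 bases. A curated transcript of 2101 bases was given 2.53 and 2.43 TPM in PF replicates 2 and 3. Reads shared by transcripts of a gene are divided by estimate, so whether the transcript differed was not tested. Markers of leukocytes, in which such genes are known to act, summed to 48.8, 25.1 and 6.27 TPM in SF and to 94.1, 66.8 and 46.0 TPM in PF replicates 1 to 3, with 9.34 TPM in PF replicate 4. Most of the PF sum was *CSF1R*, at 11.6, 16.3 and 1.82 TPM in SF and at 89.2, 62.0 and 31.5 TPM in PF replicates 1 to 3. *PTPRC*, the general leukocyte marker, was at 0.8291, 0.607 and 0.0642 TPM in SF and at 0, 0 and 0.738 TPM in PF replicates 1 to 3. *LYZ*, another marker of the list, was at 15.8, 4.05 and 2.36 TPM in SF and at 4.93, 2.56 and 4.88 TPM in PF replicates 1 to 3, and the part of leukocytes in the values of these members was not tested.

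The remaining coding members are mixed in role. *CIDEC*, a lipid droplet protein of fat cells, was listed at 0 in SF. It stood at 0.527, 3.77 and 1.87 TPM in PF replicates 1 to 3, at least 36.1-fold lower in SF on 97 counts. *FTCD*, an enzyme at the end of histidine breakdown that feeds folate, was listed at 0 in SF and stood at 0.774, 1.86 and 1.55 TPM in PF replicates 1 to 3, at least 40.5-fold lower in SF on 109 counts. Both were lowest in PF replicate 1, highest in PF replicate 2 and at 0 in PF replicate 4. *PRSS45*, a trypsin-like serine protease, was listed at 0 in SF and stood at 3.12, 3.33 and 2.17 TPM in PF replicates 1 to 3, with 0.0624 TPM, a single count, in PF replicate 4. It was at least 65.3-fold lower in SF; it belongs to a large gene family, and reads shared between near-identical copies could have been split by the quantification. *CADM3*, a nectin-like adhesion molecule of neurons, is the only member with counts in every SF library. It stood at 0.0497, 0.0796 and 0.0582 TPM in SF and at 0.678, 0.847 and 0.887 TPM in PF replicates 1 to 3, with 0 in PF replicate 4, a ratio of counts of 0.128 (0.0587 to 0.249). The few SF counts of *CADM3* were placed on a predicted transcript of 3575 bases, and the curated one of 1653 bases was given counts in PF alone. This division is also an estimate and was not tested. Neural and glial markers summed to 33.3, 16.9 and 12.4 TPM in SF and to 39.8, 44.9 and 38.2 TPM in PF replicates 1 to 3, most of it *S100B*, and their part was not tested.

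The 3 miRNA genes had the highest TPM and the fewest counts. *MIR143*, a miRNA known from smooth muscle, was listed at 0 in SF and stood at 55.4, 62.7 and 8.23 TPM in PF replicates 1 to 3, which is 14, 15 and 2 counts. *MIR502B* was listed at 0 in SF and stood at 50.5, 44.9 and 27.6 TPM in PF replicates 1 to 3, from 10, 8 and 5 counts, and *MIR2893* at 0 in SF and at 26.4, 89.2 and 26.0 TPM in PF replicates 1 to 3, from 3.1, 10 and 3 counts. All 3 were at 0 in PF replicate 4. Smooth muscle markers summed to 254, 224 and 264 TPM in SF and to 160, 159 and 72.6 TPM in PF replicates 1 to 3, and their part in the values of *MIR143* was not tested. Because the precursors are 61 to 101 bases long, a few reads give a large TPM, and the bounds were lower than for the coding genes: at least 11.6-fold lower in SF for *MIR143*, 8.58-fold for *MIR502B* and 6.002-fold for *MIR2893*. The kit primes on poly(A) tails and is no small-RNA assay, so these values say nothing of mature miRNA levels. Of 15 miRNA genes among the 10991, 3 had no count in SF and 6 had none in PF replicate 4.

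**Figure D3:**
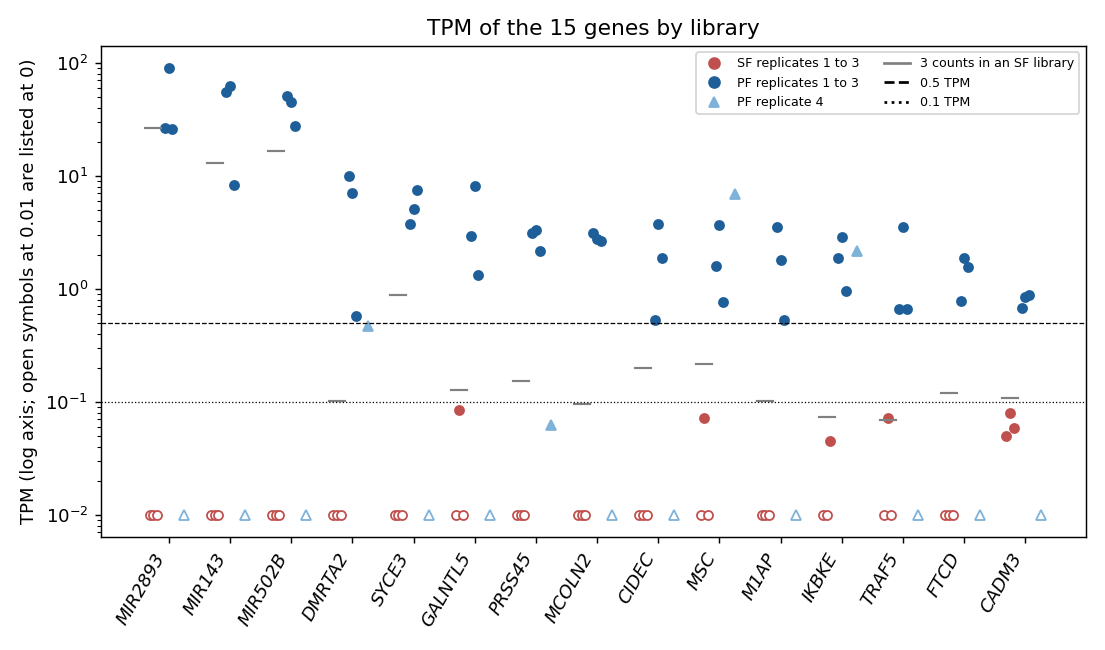
TPM (log axis) of each of the 15 genes in SF replicates 1 to 3, PF replicates 1 to 3 and PF replicate 4; open symbols are listed at 0, and the grey bars give the TPM of 3 counts in the SF library where that is highest. The dashed and dotted lines are the limits of 0.5 and 0.1 TPM; *MCOLN2* and *CADM3* have the closest PF points and *DMRTA2* the widest.

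The members differed in their spread over PF replicates 1 to 3: the highest value was more than 3 times the lowest for 9 of the 15, against 23.5% of the 10991 genes and 41.1% of those with a mean no higher than that of *DMRTA2*. The 9 include *MIR143* (7.62-fold) and *MIR2893* (3.43-fold), whose means of 42.1 and 47.2 TPM lie above that of *DMRTA2*. PF replicate 2 was the highest of PF replicates 1 to 3 for 9 members, against 33.5% of the 10991 genes, and PF replicate 3 was the lowest for 10 members, against 58.1%. Just inside the limits, the lowest PF values were those of *CIDEC* (0.527 TPM), *M1AP* (0.528) and *DMRTA2* (0.577), and the highest SF values those of *GALNTL5* (0.0854), *CADM3* (0.0796) and *MSC* (0.0718). Just outside, *DPY19L2*, *KANK3* and *ACTBL2* had lowest PF values of 0.481, 0.440 and 0.415 TPM, and *ARAP3*, *RNF148* and *OTX2* had highest SF values of 0.1003, 0.128 and 0.133 TPM. *OTX2*, a homeodomain factor, stood at 0, 0.133 and 0 TPM in SF and at 1.74, 1.08 and 1.38 TPM in PF replicates 1 to 3, with 0 in PF replicate 4.

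PF replicate 4 is the only library that the rule did not use. Of the 15 genes, 2 stood at 0.5 TPM or more there (*MSC* and *IKBKE*), which is 13.3%, against 94.7% of the 10991 genes that met the primary condition. *DMRTA2* and *PRSS45* lay between, and 11 were listed at 0, which is 73.3%, against 2.36% of those genes. Among the 2079 of them with a mean no higher than that of *DMRTA2*, 8.03% were at 0 and 80.9% at 0.5 TPM or more in PF replicate 4. All 12 coding members have such a mean, and 8 of them were at 0, while the 3 miRNAs lie above it. For the coding members at 0 other than *SYCE3*, 3 counts there would be 0.0739 to 0.212 TPM, below each of their PF values in replicates 1 to 3. For *SYCE3*, 3 counts would be 0.955 TPM, and for the miRNAs 12.6 to 28.6 TPM. As 1 library, PF replicate 4 allows no test, and its stromal, theca and smooth muscle marker sums (6201, 1519 and 1043 TPM) and its oocyte sum (475 TPM) differ from those of the other PF libraries; their part was not tested.

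**Figure D4:**
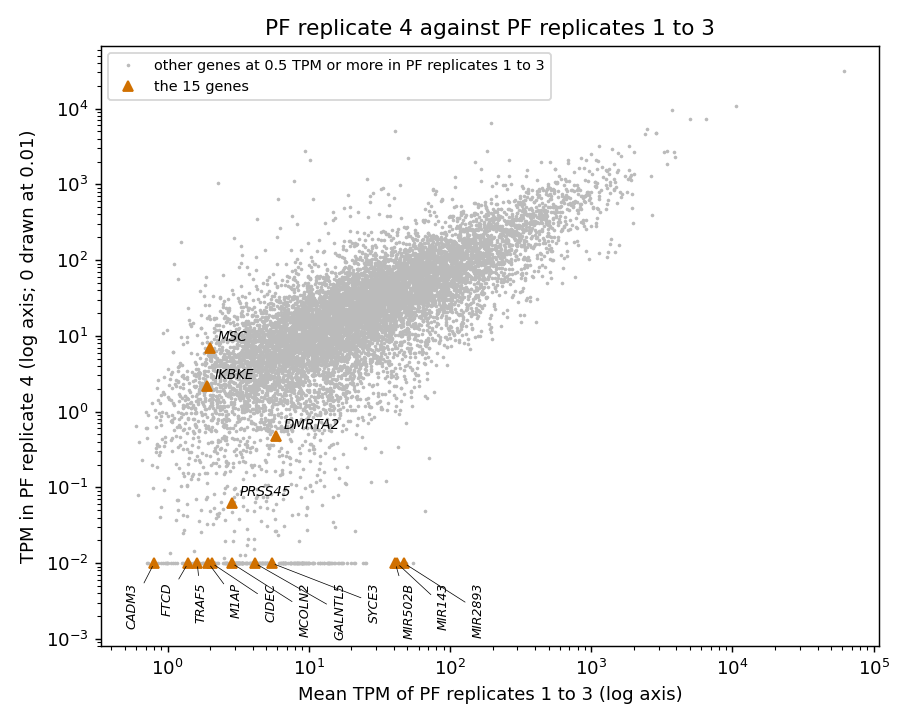
TPM in PF replicate 4 (y, log axis, 0 drawn at 0.01) against the mean of PF replicates 1 to 3 (x, log axis) for the genes at 0.5 TPM or more in PF replicates 1 to 3. Of the 15 genes, shown as triangles, 11 lie on the line of 0 and only *MSC* and *IKBKE* lie at 0.5 TPM or more.

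In the DESeq2 fit across all genes, without PF replicate 4, 1650 of 15056 genes tested were lower in SF, which is 11.0%, and 1226 were higher, which is 8.14%, so that 19.1% passed in one direction or the other at an adjusted p under 0.05. Of the 15 genes, 11 were called lower, *CADM3* was not and the 3 miRNAs had no adjusted p; the rule used the same contrast, so nothing is read from that count. With edgeR no gene of either kind passed, at 3845 genes with an unadjusted p below 0.05 against 4800 with DESeq2. The smallest adjusted p of edgeR was 0.0526, just above the threshold, so no call below could be kept with edgeR.

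Relatives were taken by symbol stem alone, and of 18, 1 was higher in SF, 2 were lower and 13 were not called, while *GALNTL6* had no adjusted p and *MCOLN3* no count. *SYCE2*, another central element protein, stood at 20.9, 13.3 and 7.91 TPM in SF and at 62.6, 62.8 and 26.7 TPM in PF replicates 1 to 3, a log2 fold change of -1.73 ± 0.53 (SE; DESeq2 adjusted p = 0.0099). The groups did not overlap, which held for 18.5% of the genes tested in this direction, although PF replicate 4, at 9.003 TPM, lay within SF, and the call ended with that library kept (adjusted p = 0.21) and without PF replicate 1 (0.070), PF replicate 2 (0.079) or SF replicate 2 (0.074). *TRAF3*, a brake on noncanonical NF-kappa-B signalling, stood at 3.87, 10.1 and 3.80 TPM in SF and at 39.5, 32.4 and 8.71 TPM in PF replicates 1 to 3, with a log2 change of -1.92 ± 0.61 (DESeq2, adjusted p = 0.013). SF replicate 2 overlapped PF replicate 3, and the call ended without PF replicate 1 (0.11), PF replicate 2 (0.096), SF replicate 1 (0.064) or SF replicate 3 (0.064), with PF replicate 4 kept (0.068) and with library number below or above 40 as a covariate (0.063). The adhesion gene *CADM2* ran the other way from its relative *CADM3*: it stood at 1.09, 1.24 and 1.67 TPM in SF and at 0, 0 and 0.102 TPM in PF replicates 1 to 3, with 0 in PF replicate 4 (5.27 ± 1.52 on the log2 scale, with 0.0059 as the adjusted p of DESeq2). This gene was no longer called without SF replicate 2 (0.061) or SF replicate 3 (0.091). Nor was it called with limma on log2(TPM + 1) (0.095) or on log2(TPM + 0.1) (0.13). Of 14 alternatives, edgeR and limma included, the call ended in 7 for *SYCE2*, 9 for *TRAF3* and 5 for *CADM2*. *MCOLN1*, the widely expressed channel of the same family as *MCOLN2*, stood at 51.8, 41.1 and 32.4 TPM in SF and at 66.4, 61.1 and 45.6 TPM in PF replicates 1 to 3 and was not called (DESeq2 adjusted p = 0.43).

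Genes that work with members were listed after their values had been seen, in 5 lists, so their counts are a description. Of 6 synaptonemal complex genes, 3 were lower in SF and none higher, *SYCP3*, *SYCE2* and *TEX12*, against 11.0% of all genes tested, while *SYCE1* and *C10H14orf39* were not called and *SYCP2* had no adjusted p. Oocyte markers, among which *SYCP3* was listed, were lower for 15 of 19, at a median of -2.44 on the log2 scale, and their part in these 3 calls was not tested. *TEX12*, also of the central element, stood at 11.6, 6.23 and 1.75 TPM in SF and at 39.1, 55.2 and 33.1 TPM in PF replicates 1 to 3, a log2 fold change of -2.62 ± 0.68 (DESeq2 adjusted p = 0.0019), and it was called whichever 1 library was left out. *SYCP3* had a log2 fold change of -2.15 ± 0.55 (DESeq2 adjusted p = 0.0016), and its call ended with PF replicate 4 kept (0.14). With limma on log2(TPM + 0.1) neither *TEX12* nor *SYCP3* was called (adjusted p = 0.062 for each). *SYCP3*, *SYCE2* and *TEX12* were measurable in every SF library, with PF means of 274, 50.7 and 42.5 TPM. The rule put *SYCE3* at no count in SF, so nothing is read from its difference to these partners. The other 3 of the list were low in SF: *SYCP2* stood at 0.0228, 0 and 0 TPM. *SYCE1* stood at 0.186, 0.743 and 0.0727 TPM there, and *C10H14orf39* at 0.166, 0.325 and 0.299 TPM.

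Of 6 DM domain genes, only 3 had an adjusted p; *DMRT2* (DESeq2 adjusted p = 0.045) and *DMRT3* (0.028) were lower in SF, against 11.0% of all genes tested, *DMRTA1* was not called, and *DMRT1*, *DMRTB1* and *DMRTC2* had no adjusted p. The call of *DMRT2* ended without PF replicate 1 (0.29), PF replicate 2 (0.097), SF replicate 1 (0.076), SF replicate 2 (0.17) or SF replicate 3 (0.14), and that of *DMRT3* without PF replicate 1 (0.24), PF replicate 2 (0.059), SF replicate 2 (0.094) or SF replicate 3 (0.10). With library number below or above 40 as a covariate both calls ended as well (0.20 for *DMRT2* and 0.12 for *DMRT3*). Of the alternatives with an adjusted p, the *DMRT2* call ended in 13 of 14 and the *DMRT3* call in 9 of 12. The *DMRT2* call was kept only without PF replicate 3 (DESeq2 adjusted p = 0.0017). Of 4 I-kappa-B kinase genes, *CHUK* was higher in SF, at 19.4, 25.8 and 21.9 TPM in SF and 15.8, 14.04 and 13.7 TPM in PF replicates 1 to 3 (DESeq2 adjusted p = 0.036), and *TBK1*, the closest relative of *IKBKE*, *IKBKB* and *IKBKG* were not called. The call of *CHUK* ended without PF replicate 1 (0.15), PF replicate 2 (0.17), SF replicate 2 (0.19) or SF replicate 3 (0.093), with PF replicate 4 kept (0.92) and in the fit with that covariate (0.078). That call ended in 11 of 14 alternatives in all. The lipid droplet gene *CIDEB* was higher in SF, at 2.98, 0.269 and 0.795 TPM in SF and 0 in PF replicates 1 to 3 (DESeq2 adjusted p = 0.035), whereas *CIDEA* was not called (0.35). The call of *CIDEB* ended without PF replicate 1 (0.064), PF replicate 2 (0.060), SF replicate 2 (0.10) or SF replicate 3 (0.15), with PF replicate 4, at 1.31 TPM, kept (0.72) and in the fit with that covariate (0.092). Those are 6 of the 8 alternatives with an adjusted p for *CIDEB*. Without SF replicate 1, where it was highest, it had none. None of *HAL*, *UROC1* and *AMDHD1*, the enzymes before *FTCD* in histidine breakdown, was called in either direction.

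**Figure D5:**
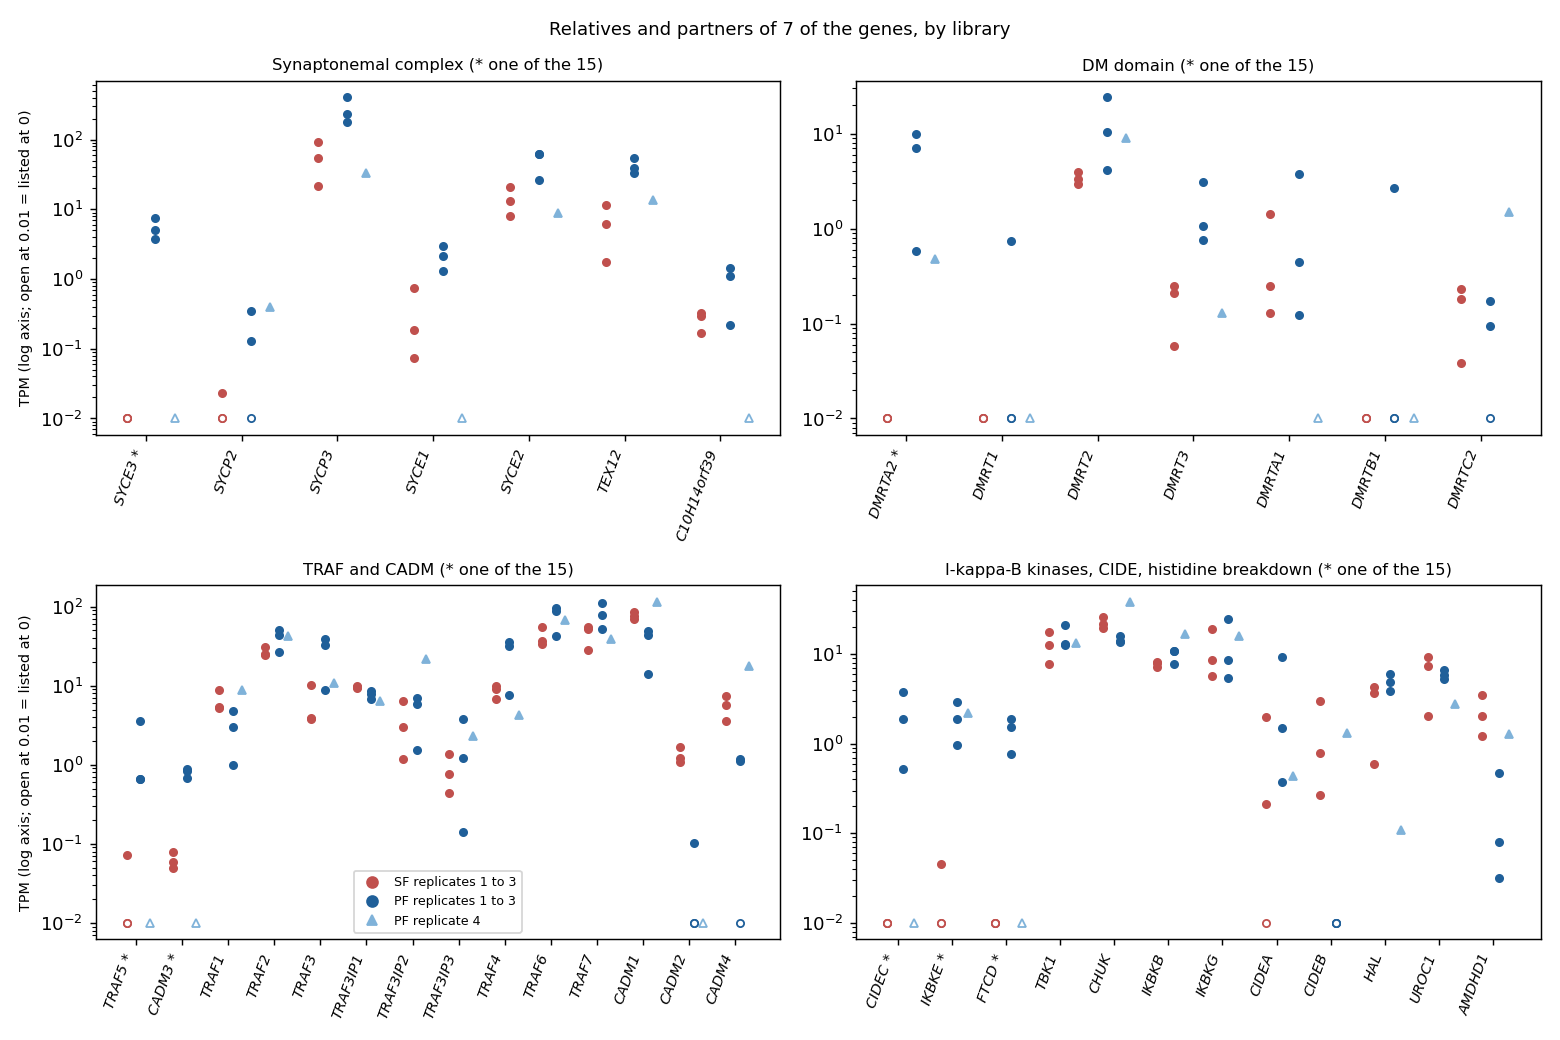
TPM (log axis; open symbols at 0.01 are listed at 0) in SF replicates 1 to 3, PF replicates 1 to 3 and PF replicate 4 for members (starred) and their relatives or partners, in 4 panels. The SF points of *SYCP3*, *SYCE2* and *TEX12* lie above 1 TPM, while the rule put *SYCE3* at 0 in SF, and *CADM2* is higher in SF.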

How the data were processed

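RNA of pooled follicles was made into cDNA with SMART-Seq v4, an oligo-dT kit that does not mark strand, so reads of overlapping antisense genes cannot be told apart. The authors trimmed reads with Trim Galore and fastp and quantified them with Salmon on the ARS-UCD1.3 transcriptome. The deposited files hold, per transcript, the estimated counts and the TPM that the authors obtained with Salmon, and the transcript length. Of 76123 transcripts, 50205 (66.0%) were matched by accession to 23704 genes of the RefSeq table of ARS-UCD2.0, from which symbols alone were used; the rest held 9.71% to 10.7% of counts. Counts were summed per gene and rounded, and TPM summed.

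Groups came from the labels. DESeq2 (1.42.0, R 4.3.3) compared SF with PF without PF replicate 4, as the study did, with Benjamini-Hochberg adjustment and a threshold of 0.05. edgeR (4.0.16), limma (3.58.1, log2 TPM with a pseudocount of 1 or 0.1), other filters, scaling and left-out libraries were alternatives, and the fits were tested on simulated data. The study pooled follicles of many animals into what it calls biological replicates; which animals each library holds is not stated, so a p-value covers the spread between these pools. Counting intervals (exact, 95%) treat reads as independent and leave out the spread between libraries. The PCR reads carry no molecular identifiers, so the intervals can be too narrow even for counting error. The floor of 3 counts has the same limit and allows for counting error in SF alone, with the summed PF counts taken as measured. The members, the gene lists and the tests were chosen with earlier results of these data known. All 15 members are named, with the 3 genes nearest each limit and the relatives called; relatives share the symbol up to its first digit, of 3 letters or more and 15 genes or fewer. Genes of 5 partner lists (synaptonemal complex, DM domain, I-kappa-B kinases, CIDE, histidine breakdown) were chosen after values were seen, and all 5 are reported. Promoter motifs were not analysed here.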

Additional observations from a re-analysis of the deposited data

Results flagged for a closer look

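Among the 4 PF libraries, a gap between 1 library and the rest was compared with Dixon's 95% critical value for 26 values, of which chance alone flags about 1 in 20. *MCOLN2* passed, with a gap of 0.853 of its range, because PF replicate 4 was at 0 and the others lay between 2.66 and 3.12 TPM; the rule took the gene for being present in those 3, which favours such a gap. The number of the 15 genes at 0.5 TPM or more also passed, at 1 (15, 15, 15 and 2 in PF replicates 1 to 4), but the rule fixes the first 3 of these numbers. The summed markers of stromal fibroblasts (0.966), theca (0.934) and smooth muscle (0.91) passed too, each with PF replicate 4 as the high library. Most of its smooth muscle sum was *ACTA2* (702 TPM) and *TAGLN* (260 TPM), and *CNN1* (43.6 TPM) was also above the other PF libraries. *MYH11*, at 28.5 TPM, was lowest in PF replicate 4, and *DES*, *NOTCH3* and *MCAM* lay within the range of the other PF libraries.

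Signals outside the named genes met the same limits. There were 4 genes with a LOC symbol, of 773 at 0.5 TPM or more in PF replicates 1 to 3. The highest, *LOC112441686*, was at 0 in SF and at 3.72, 12.3 and 16.5 TPM in PF replicates 1 to 3, with 0 in PF replicate 4, whereas *LOC112442854* held 8.95 TPM in PF replicate 4. A further 58 transcripts matched to no gene met the limits, which is 1.74% of 3331 such transcripts at 0.5 TPM or more in PF replicates 1 to 3, against 0.625% of 15512 matched transcripts.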

How the results depend on the processing

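The number of genes meeting the rule was 15. It was 7 with 1 TPM required in PF (all among the 15), 26 with 0.25 TPM, 2 with all 4 PF libraries required and, in an alternative chosen after seeing the data, 7 with PF replicate 4 in place of replicate 3, of which 2 are among the 15. With CPM in place of TPM it was 13, of which 8 are among the 15. Leaving out 1 library relaxes the rule and gave 25 to 70 genes (31, 40 and 42 without PF replicate 1, 2 or 3, and 35, 70 and 25 without SF replicate 1, 2 or 3). Genes lower in SF numbered 1650 with DESeq2, 0 with edgeR, 559 and 2 with limma on log2(TPM + 1) and log2(TPM + 0.1), and 470 with PF replicate 4 kept; leaving out 1 library gave 927 to 1929. Of the 15 genes, 11 were called lower, against 0, 6 and 2 in the same alternatives, 7 with the filter of 10 counts in 3 libraries and 7 with PF replicate 4 kept; leaving out 1 library gave 6 to 10. The causes were not tested. Log2 fold changes of members under alternatives ran between -10.33 and -1.94; the rule fixes their sign.

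Deviations of the same-numbered libraries correlated at 0.256, -0.0373 and 0.396. PF replicates 1 and 3 correlated best with the SF library of the same number, and PF replicate 2 with SF replicate 1 (0.261). With 3 libraries in each group, these values do not settle whether same-numbered libraries pair. By library number, PF replicates 1 and 2 and SF replicate 1 are below 40, and PF replicate 3 correlated at -0.424 with SF replicate 1. With library number below or above 40 as a covariate, 1518 genes and 9 of the 15 were lower. With the replicate number as a block, 2129 genes and 9 of the 15 were lower, and the calls of *DMRT2* (0.063), *DMRT3* (0.070) and *CHUK* (0.089) ended. Depth limits the miRNAs, with 16 to 31 counts, and *SYCE3*, with 57.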
